A study of Homo sapiens with 18 samples.

Results

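Intraflagellar transport (IFT) genes and genes of the ciliary base were described across 6 conditions of an NRF1 isoform rescue experiment. The members were 41 genes, found by the gene symbol that follows the gene ID in the row names of the count table, of 58870 rows in all. By role they were 6 genes of the IFT-A complex, 8 of the IFT-B core, 6 of the IFT-B periphery, 13 of the transition zone, 4 of ciliary membrane traffic and 4 of the basal body. The ciliary motors and the BBSome, which carries membrane proteins out of cilia, were not members and are used below for comparison. All 41 members were among the 17962 genes that had enough counts to be tested, and no member had fewer than 97 counts in any library.

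The experiment measured polyadenylated RNA in HEK293 Flp-In cells, an embryonic kidney line with a site for targeted insertion of a transgene. The 18 libraries fell into 6 conditions of 3 libraries. Cells of the NRF1-ΔE7 line received siNRF1, a short interfering RNA against NRF1, or siNT, its non-targeting control. Cells of the NRF1-FL line and cells without a transgene received the same siRNAs. NRF1-FL is the full-length isoform of the transcription factor NRF1 (nuclear respiratory factor 1) and NRF1-ΔE7 the isoform that lacks exon 7. The transgenes carried a FLAG tag and silent changes at the siRNA site, and were switched on by doxycycline, which the labels list for all 18 libraries. Per the labels it was added 24 h after transfection, and the study's methods give another time. Each transgene was studied in 1 stable line expanded from hygromycin-resistant colonies, so the isoform and the line cannot be told apart. The labels do not say whether the 3 libraries of a condition came from separate cultures, and p-values measure the spread between these libraries, which may be technical.

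A cilium is built and kept by IFT trains that run along its microtubules. IFT-B, pulled by a kinesin, carries tubulin and other parts to the tip, and IFT-A is needed for the return by dynein and for the entry of membrane receptors. At the base, the transition zone forms a gate between the cilium and the cell, anchored on the basal body, a modified centriole. Many of these genes are mutated in ciliopathies such as Joubert and Meckel syndromes.

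NRF1 RNA itself had 7.19, 9.25 and 7.70 CPM (counts scaled to the size of the library) in siNRF1 cells without a transgene, against 31.1, 29.9 and 29.3 CPM in siNT cells. It fell by 1.92 ± 0.06 on the log2 scale (± SE throughout for log2 values). In the NRF1-FL line it had 49.3, 50.4 and 49.1 CPM with siNRF1, against 52.4, 55.7 and 55.2 CPM with siNT. The NRF1-ΔE7 line had 37.3, 37.9 and 39.9 CPM with siNRF1, against 58.7, 58.99 and 57.9 CPM with siNT. These counts hold the transgene and the endogenous RNA together, and total NRF1 RNA under siNRF1 was lower in the NRF1-ΔE7 line than in the NRF1-FL line (log2 -0.37 ± 0.045, adjusted p = 9e-07).

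The siRNA sequence is shown because its seed, bases 2 to 8 of the guide strand, can also meet other RNAs. The sense strand matches hg38 chr7:129677681-129677699 on the + strand, in the coding part of exon 4 of 11 of NRF1. The guide is its reverse complement, with the seed in capitals. The DNA letters that pair with the seed, in capitals below, occur in the annotated 3′ UTR of 2 of 41 members, TTC21B (chr2:165874443-165874449, − strand) and CC2D2A (chr4:15601444-15601450, + strand), both positions in hg38 with GENCODE v44.
NRF1 siRNA sense strand: GCUAUUGUCCUCUGUAUCU
NRF1 siRNA guide strand: aGAUACAGaggacaauagc
TTC21B 3′ UTR site: ttaaataccCTGTATCttttctaag
CC2D2A 3′ UTR site: ctgtactttCTGTATCatgtaaaaa
These are 4.88% of members, beside 11% of the 14245 tested genes with an annotated 3′ UTR. The members' 3′ UTRs had a median of 638 bases and those of the tested genes a median of 1328 bases.

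NRF1 binds palindromic GC-rich sites in promoters, and the 9 letters GCGCANGCG were searched on either strand in RefSeq promoters (GRCh38.p14, 250 bases before to 50 after the gene's start). Of 41 members 37 had a promoter in the table, and WDR35, IFT22, TMEM67 and TCTN2 did not. The letters occurred in 3 of 37 members, or 8.11%, beside 7.52% of all 35116 promoters and 14% of the 11719 promoters of tested genes. The 3 stretches are shown with the match in capitals, read on the gene's strand.
IFT172 (chr2:27489801-27489841, − strand): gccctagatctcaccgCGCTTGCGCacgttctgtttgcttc
TRAF3IP1 (chr2:238320476-238320516, + strand): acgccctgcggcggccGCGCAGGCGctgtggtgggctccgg
TULP3 (chr12:2890700-2890740, + strand): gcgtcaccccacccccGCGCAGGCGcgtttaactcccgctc
The match ran from 82 to 74 bases before the start in IFT172, from 26 to 18 before it in TRAF3IP1 and from 175 to 167 before it in TULP3. B9D2, the member with the highest log2 fold changes below, has no match in its promoter, which is given whole.
B9D2 (chr19:41364100-41364399, − strand): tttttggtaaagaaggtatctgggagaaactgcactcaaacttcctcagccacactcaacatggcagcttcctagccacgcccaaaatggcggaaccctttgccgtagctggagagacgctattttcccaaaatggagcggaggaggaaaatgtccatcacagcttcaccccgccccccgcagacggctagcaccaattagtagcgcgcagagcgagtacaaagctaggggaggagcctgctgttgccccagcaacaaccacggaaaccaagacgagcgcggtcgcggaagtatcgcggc

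Library totals ran from 31.2 to 44.8 M counts, with a median of 38.3 M. Markers of the line itself were present in every library, with PAX2, LHX1, NEFL, NEFM and VIM summing to between 1527 and 1889 CPM. The proliferation markers MKI67, TOP2A, CCNB1, CCNA2 and PCNA summed to between 2539 and 2689 CPM in siNRF1 libraries and between 2299 and 2474 CPM in siNT libraries. By the adjusted p 3 of these 5 were higher and 2 lower with siNRF1 in each line. The 6 markers of motile multiciliated cells summed to between 16.5 and 20.4 CPM in the siNRF1 libraries and to between 12.4 and 14.7 CPM in the siNT libraries, and TEKT1 was at 0 in 3 of 6 conditions. Mitochondrial transcripts took 1.19% to 1.66% of counts in siNRF1 libraries and 0.767% to 0.975% in siNT libraries. The part of these in the results below was not tested. KRT5, a keratinocyte keratin, had 2.02, 0 and 12.6 CPM in siNRF1 cells without a transgene and at most 1.41 CPM in the other 15 libraries. The keratinocyte markers KRT5, KRT14 and TP63 together reached 14.2 CPM in these siNRF1 cells. In the NRF1-ΔE7 line they reached 1.77 CPM with siNRF1 and 0.959 CPM with siNT. In the NRF1-FL line and in siNT cells without a transgene they reached at most 0.115 CPM. NRF1-ΔE7 libraries were left out only in the fits without each library in turn. Leaving out the 2 siNRF1 libraries without a transgene that held KRT5 leaves 1 such library, which is then assumed to vary like the other groups. With 1 library left, that fit is no check of replicates, and its number of calls is not given. In bulk RNA a change in the share of cells with a gene on and a change in RNA per cell cannot be told apart.

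With siNRF1, RNA of many IFT genes was higher than with siNT in all 3 lines. This includes the NRF1-FL line, where total NRF1 RNA with siNRF1 was a little below its siNT level, as given above. That total holds transgene and endogenous RNA together, and its part in the rise of IFT genes was not tested. A single siRNA sequence against NRF1 was used, and effects of it other than on NRF1 were not tested. A gene is called here at an adjusted p under 0.05 (edgeR's quasi-likelihood test, Benjamini-Hochberg over the 17962 genes tested) together with a log2 fold change past 0.5 in size. In the NRF1-ΔE7 line 20 of 41 members were called higher with siNRF1 than with siNT, where 16% of all genes tested were, and 4 lower, where 16.8% were. In the NRF1-FL line 21 were called higher (13.1% of all genes) and 3 lower (14%). Without a transgene 18 were called higher (13.7% of all genes) and 4 lower (15.2%). The median log2 fold change of the members was 0.49 in the NRF1-ΔE7 line, 0.50 in the NRF1-FL line and 0.43 without a transgene, and that of all genes tested was 0.023, 0.023 and 0.0082 in the same order of lines. By the adjusted p alone, without the fold threshold, 36 of 41 members passed in the NRF1-ΔE7 line (68.1% of all genes), 39 in the NRF1-FL line (63.5%) and 38 without a transgene (64.5%). With upper-quartile scaling in place of TMM the calls among members were 23 higher and 4 lower in the NRF1-ΔE7 line, 23 and 1 in the NRF1-FL line, and 23 and 3 without a transgene. Of all 17962 genes, upper-quartile scaling called 3692 higher and 2510 lower in the NRF1-ΔE7 line, where TMM called 2875 and 3024. In the NRF1-FL line it called 2995 and 2028 (TMM 2353 and 2506), and without a transgene 3110 and 2276 (TMM 2462 and 2731). Upper-quartile scaling raised the median of all genes by 0.097 in the NRF1-ΔE7 line, 0.083 in the NRF1-FL line and 0.085 without a transgene.

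The 3 comparisons share no library. Of 41 members 16 were called higher in all 3 (9.36% of all genes tested were) and 3 lower in all 3 (10.9%), while 7 were called in 1 or 2 lines (17.1%, beside 19.4% of all genes) and 15 in none (36.6%, beside 60.3%). The log2 fold change had the same sign in all 3 lines for 39 members (95.1%, beside 81.2% of all genes).

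**Figure D1:**
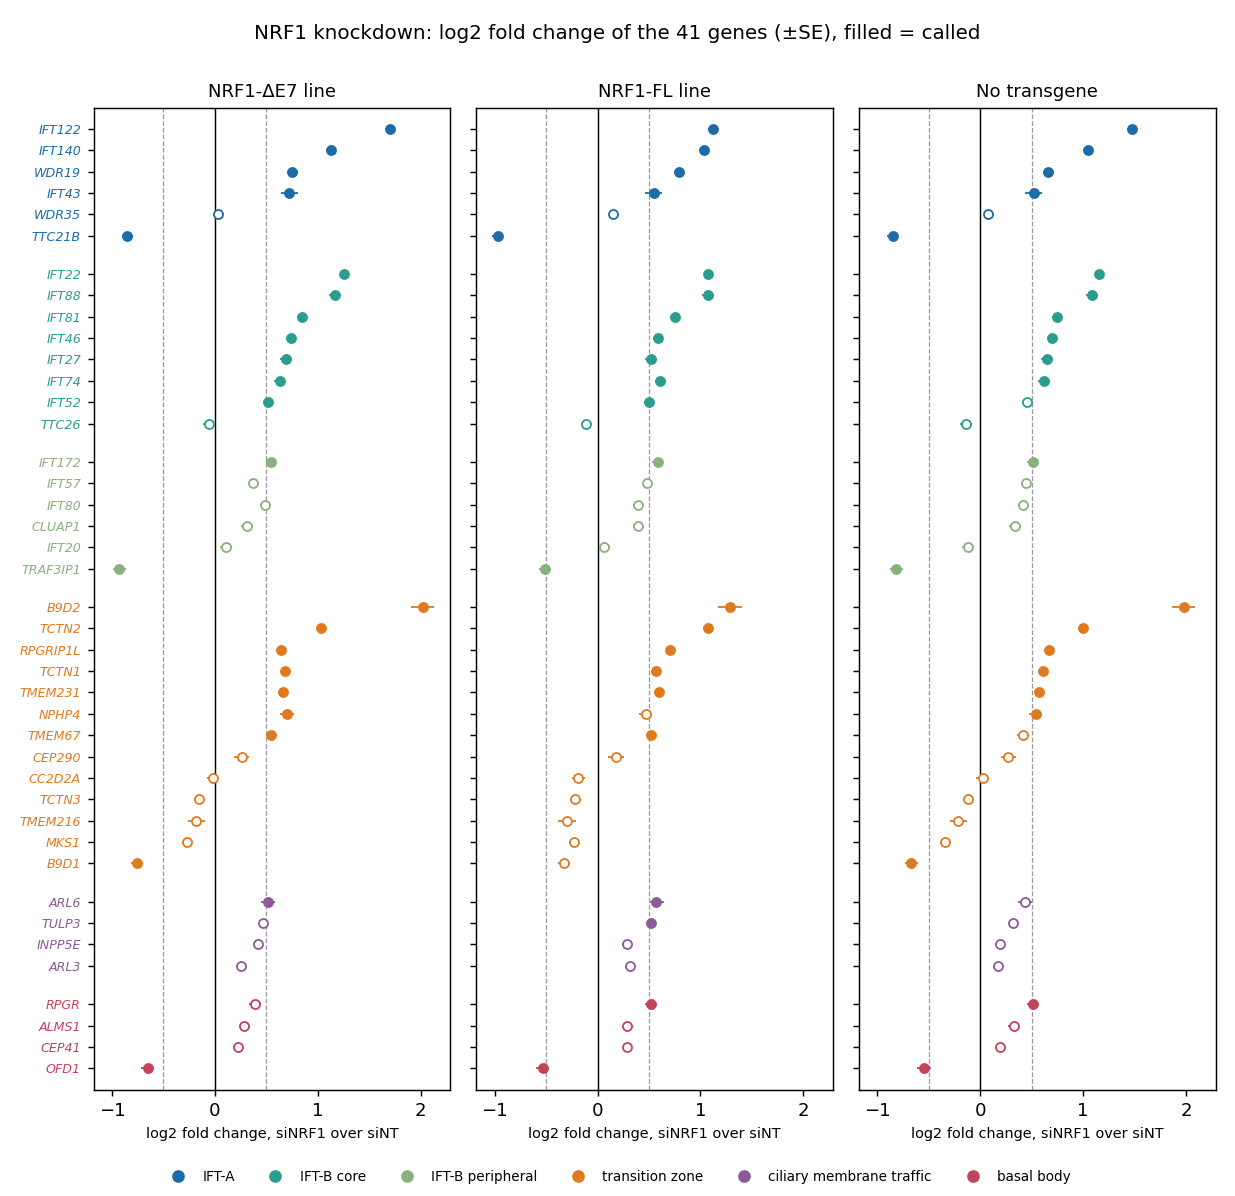
Log2 fold change of siNRF1 over siNT (horizontal axis) for each of the 41 members (rows, coloured by role group) in the NRF1-ΔE7 line, the NRF1-FL line and cells without a transgene. Points are edgeR estimates with ±SE from 3 libraries a condition, filled where called, dashed lines mark ±0.5, and B9D2 has the highest value in each panel.

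**Figure D2:**
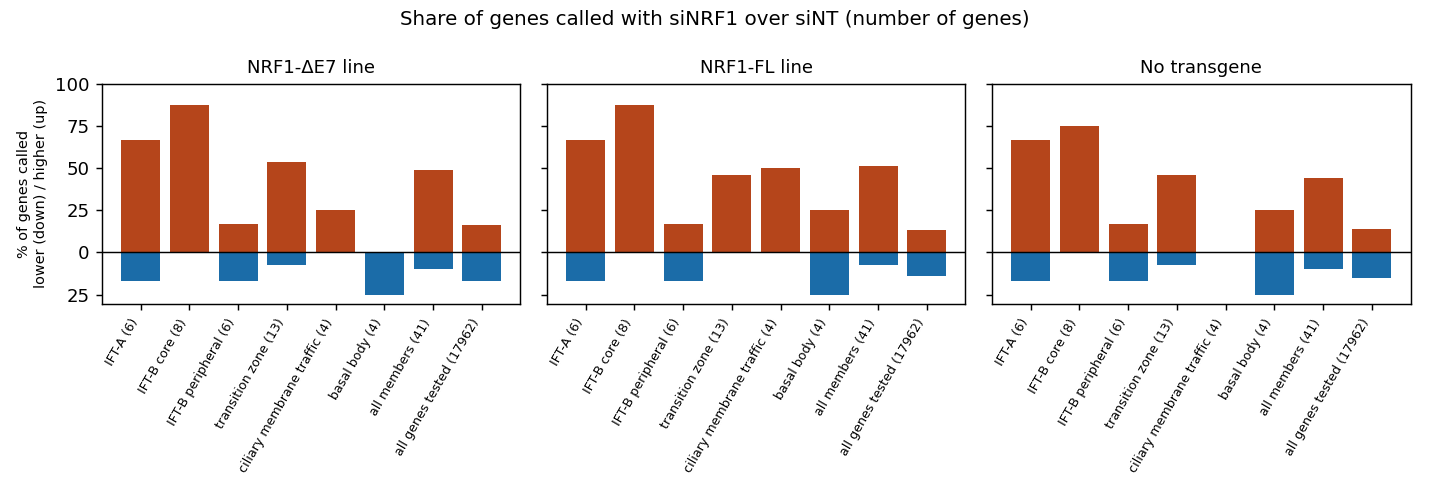
Percentage of genes called higher (red, upward) or lower (blue, downward) with siNRF1 than with siNT in each role group, in all 41 members and in all 17962 genes tested, in 3 lines. The IFT-B core has the highest share of genes called higher in each panel, 7 of 8 genes in both transgenic lines and 6 of 8 without a transgene.

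IFT-A had 4 of 6 genes called higher and 1 lower in every line. These were 66.7% and 16.7% of the group, beside 13.1% to 16% higher and 14% to 16.8% lower of all genes tested. IFT122, a core subunit needed for the entry of receptors into cilia, had 61.9, 58.4 and 60.6 CPM with siNRF1 in the NRF1-ΔE7 line, against 19.1, 19.6 and 17.1 CPM with siNT. The NRF1-FL line had 44.6, 46.02 and 43.02 CPM with siNRF1, against 21.5, 20.3 and 19.6 CPM with siNT. Without a transgene it had 56.8, 58.6 and 58.1 CPM with siNRF1, against 21, 19.8 and 21.4 CPM with siNT. Every siNRF1 library lay above every siNT library, and the 3 siNRF1 libraries of the NRF1-FL line lay below the other 6. The log2 fold changes of IFT122 were 1.70 ± 0.047 in the NRF1-ΔE7 line, 1.12 ± 0.048 in the NRF1-FL line and 1.48 ± 0.047 without a transgene.

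IFT140, another core subunit of IFT-A, had 49.3, 52.04 and 47.5 CPM with siNRF1 in the NRF1-ΔE7 line, against 24.4, 22.5 and 21.1 CPM with siNT. With siNRF1 the NRF1-FL line had 51.4, 54.3 and 50.2 CPM, against 25.4, 25.04 and 25.9 CPM with siNT. Cells without a transgene had 54.7, 55.7 and 54.96 CPM with siNRF1, against 25.6, 25.9 and 28.2 CPM with siNT. The siNRF1 and siNT libraries did not overlap in any line, and IFT140 rose by log2 1.13 ± 0.049 in the NRF1-ΔE7 line, 1.03 ± 0.049 in the NRF1-FL line and 1.05 ± 0.049 without a transgene (adjusted p at most 1.2e-14). WDR19, the third core subunit, rose by 0.75 ± 0.053, 0.79 ± 0.052 and 0.66 ± 0.053 in the same order of lines. IFT43, a small peripheral subunit, rose by 0.72 ± 0.082, 0.55 ± 0.082 and 0.52 ± 0.083, close to the threshold in the last 2. Without a transgene its call was lost when siNRF1 replicate 2 (log2 0.44) or siNT replicate 2 (0.49) was left out.

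TTC21B, a peripheral IFT-A subunit that is mutated in nephronophthisis, was the member of this complex that fell. It had 16.1, 16.8 and 17.7 CPM with siNRF1 in the NRF1-ΔE7 line, against 28.4, 30.9 and 31.9 CPM with siNT. Its levels in the NRF1-FL line were 16.1, 16.6 and 16 CPM with siNRF1, against 30.5, 32.6 and 32.3 CPM with siNT. With no transgene it had 17.7, 17.04 and 16.5 CPM with siNRF1, against 30.8, 30.1 and 31.5 CPM with siNT. All 9 siNRF1 libraries lay below all 9 siNT libraries. TTC21B fell by log2 0.85 ± 0.05 in the NRF1-ΔE7 line, 0.97 ± 0.051 in the NRF1-FL line and 0.85 ± 0.051 without a transgene, and its 3′ UTR holds 1 of the 2 seed matches shown above. The siRNA seed was not tested as a source of this difference. The difference of its siNRF1 value between the NRF1-FL line and cells without a transgene was -0.12 ± 0.072 (adjusted p = 0.46). CC2D2A, which holds the other seed match, had log2 fold changes of -0.019 ± 0.059 in the NRF1-ΔE7 line, -0.19 ± 0.062 in the NRF1-FL line and 0.024 ± 0.062 without a transgene, none of them called. WDR35, a further subunit of IFT-A, had 50.98 ± 1.1 CPM with siNRF1 and 48.4 ± 1.9 CPM with siNT without a transgene (SD, n = 3 each), and its log2 fold changes were 0.034, 0.15 and 0.077 in the order above.

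**Figure D3:**
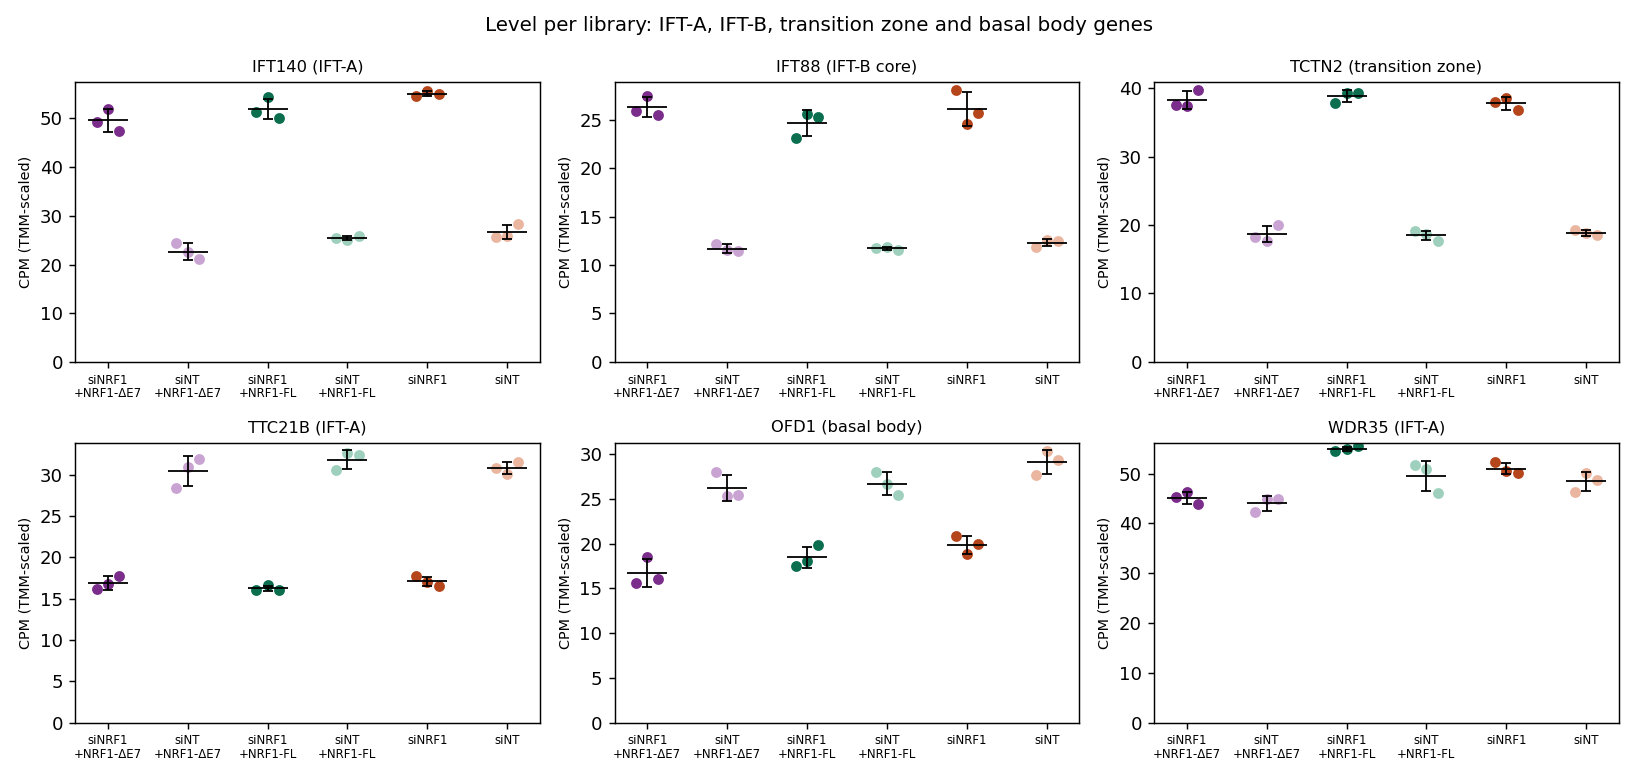
CPM per library (vertical axis, TMM-scaled) of IFT140, IFT88, TCTN2, TTC21B, OFD1 and WDR35 in the 6 conditions. Points are libraries, black bars are the mean ± SD of 3. With siNRF1 the points of each line lie above those with siNT for IFT140, IFT88 and TCTN2 and below them for TTC21B and OFD1, as for TTC21B without a transgene, with means of 17.1 CPM with siNRF1 and 30.8 CPM with siNT.

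The IFT-B core had 7 of 8 genes called higher in both transgenic lines and 6 of 8 without a transgene, with none called lower. The shares higher were 87.5% and 75%, beside 13.1% to 16% higher and 14% to 16.8% lower of all genes tested. IFT88, the subunit without which mouse cells build no proper cilia, had 25.95, 27.5 and 25.5 CPM with siNRF1 in the NRF1-ΔE7 line, against 12.2, 11.5 and 11.4 CPM with siNT. Its levels in the NRF1-FL line were 23.1, 25.6 and 25.3 CPM with siNRF1, against 11.7, 11.9 and 11.6 CPM with siNT. In cells without a transgene they were 28.04, 24.6 and 25.8 CPM with siNRF1, against 11.9, 12.6 and 12.5 CPM with siNT. The groups did not overlap in any line, and IFT88 rose by log2 1.17 ± 0.057 in the NRF1-ΔE7 line, 1.07 ± 0.058 in the NRF1-FL line and 1.09 ± 0.058 without a transgene.

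IFT22, a small GTPase of the complex, had 54.8, 56.4 and 53.8 CPM with siNRF1 and no transgene, against 24.9, 24.6 and 24.5 CPM with siNT. It rose by 1.25 ± 0.041 in the NRF1-ΔE7 line, 1.08 ± 0.041 in the NRF1-FL line and 1.16 ± 0.042 without a transgene. Of its annotated transcript 79.6% is overlapped by exons of EMSLR on the opposite strand, and since the strand setting of the counts is not given, reads of these genes cannot be told apart. IFT81 and IFT74 form the pair that binds tubulin cargo. IFT81 rose by 0.85 ± 0.049 in the NRF1-ΔE7 line, 0.75 ± 0.049 in the NRF1-FL line and 0.75 ± 0.049 without a transgene, and IFT74 by 0.63 ± 0.055, 0.61 ± 0.055 and 0.62 ± 0.055. IFT46 rose by 0.74 ± 0.043, 0.59 ± 0.044 and 0.70 ± 0.044 in these lines. IFT27, a small GTPase that links IFT-B to the BBSome, rose by 0.69 ± 0.058, 0.52 ± 0.059 and 0.65 ± 0.059. In the NRF1-FL line its call was lost without siNRF1 replicate 1, siNRF1 replicate 3 or siNT replicate 2 (0.47 to 0.49). Of the IFT27 transcript 13% lies opposite exons of another annotated gene.

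IFT52, a scaffold of the core, stood at the threshold, with 50.7 ± 1.6 CPM with siNRF1 and 36.8 ± 0.73 CPM with siNT without a transgene (SD, n = 3 each). Its log2 fold changes were 0.52 ± 0.048 and called in the NRF1-ΔE7 line, 0.50 ± 0.048 and called in the NRF1-FL line, and 0.46 ± 0.048 and not called without a transgene. For the NRF1-FL value the call was lost with DESeq2, RLE scaling, no filter, the compared libraries alone, or without siNRF1 replicate 1, siNRF1 replicate 2 or siNT replicate 1 of that line (log2 0.45 to 0.496). In the NRF1-ΔE7 line it was lost without siNRF1 replicate 3 (0.47) or siNT replicate 1 (0.48). Without a transgene upper-quartile scaling added IFT52 (0.55). TTC26 was the core gene that was called in no line, with log2 fold changes of -0.062, -0.11 and -0.14 in the same order.

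The IFT-B periphery had 1 of 6 genes called higher and 1 lower in every line. These were 16.7% each, near the 13.1% to 16% higher and 14% to 16.8% lower of all genes tested. IFT172, needed in Chlamydomonas for trains to turn at the tip, holds a match to the NRF1 letters. It had 29.5, 31.4 and 30.8 CPM with siNRF1 and no transgene, against 21.1, 21.2 and 21.98 CPM with siNT. It rose by 0.54 ± 0.052 in the NRF1-ΔE7 line, 0.58 ± 0.051 in the NRF1-FL line and 0.51 ± 0.052 without a transgene. Leaving out siNRF1 replicate 2 (0.49) or siNT replicate 1 (0.499) took the last value below the threshold, as leaving out siNRF1 replicate 1 did in the NRF1-ΔE7 line (0.49). IFT57, IFT80 and CLUAP1, further peripheral subunits, had log2 fold changes between 0.31 and 0.49 in all 3 lines and were not called. IFT80 was called in the NRF1-ΔE7 line without siNT replicate 2 (0.504) or siNT replicate 3 (0.51), with a minimum of 10 counts in every library (0.502) and with upper-quartile scaling (0.59), which also called it without a transgene (0.501). IFT57 was called in the NRF1-FL line without siNT replicate 3 (0.502) and with upper-quartile scaling (0.56), which called it without a transgene as well (0.53). For IFT80, 48.8% of the annotated transcript is shared with another annotated gene on its strand, and for CLUAP1 10.2%. IFT20, which also sorts membrane proteins at the Golgi, had values of 0.11, 0.065 and -0.12, and 41.9% of its transcript lies opposite exons of TMEM97.

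TRAF3IP1, a microtubule-binding subunit, was the peripheral gene that fell. It had 17.3, 17.6 and 14.2 CPM with siNRF1 in the NRF1-ΔE7 line, against 32.9, 31.2 and 29.5 CPM with siNT. In the NRF1-FL line it had 21.4, 23.3 and 22.4 CPM with siNRF1, against 33.1, 30.4 and 32.1 CPM with siNT. Without a transgene it had 17.8, 17.2 and 17.7 CPM with siNRF1, against 30.95, 31.4 and 30.5 CPM with siNT. No siNRF1 library reached the level of any siNT library, and the siNRF1 libraries of the NRF1-FL line lay above the other 6. TRAF3IP1 fell by log2 0.93 ± 0.062 in the NRF1-ΔE7 line, 0.51 ± 0.061 in the NRF1-FL line and 0.81 ± 0.063 without a transgene. The value in the NRF1-FL line lost its call with upper-quartile scaling (-0.42), with a minimum of 10 counts in every library (-0.49) and without siNRF1 replicate 1 or siNT replicate 1 of that line (both -0.48), and its promoter holds a match to the NRF1 letters.

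The transition zone had 7 of 13 genes called higher and 1 lower in the NRF1-ΔE7 line, 6 and 0 in the NRF1-FL line, and 6 and 1 without a transgene. In this order the shares higher were 53.8%, 46.2% and 46.2%, beside 16%, 13.1% and 13.7% of all genes tested. The shares lower were 7.69%, 0% and 7.69%, beside 16.8%, 14% and 15.2%. B9D2, a B9-domain subunit of the Meckel complex at this gate, had 14.03, 13.2 and 13.8 CPM with siNRF1 in the NRF1-ΔE7 line, against 3.21, 3.52 and 3.41 CPM with siNT. The NRF1-FL line had 8.21, 8.64 and 7.12 CPM with siNRF1, against 3.28, 2.60 and 3.95 CPM with siNT. Cells without a transgene had 12.5, 15.4 and 12.6 CPM with siNRF1, against 3.47, 3.60 and 3.19 CPM with siNT. The 6 siNRF1 libraries outside the NRF1-FL line lay between 12.5 and 15.4 CPM, the 3 of the NRF1-FL line between 7.12 and 8.64 CPM, and all 9 siNT libraries between 2.60 and 3.95 CPM. B9D2 rose by log2 2.02 ± 0.11 in the NRF1-ΔE7 line, 1.28 ± 0.12 in the NRF1-FL line and 1.98 ± 0.11 without a transgene. Of its transcript 3.97% lies opposite TMEM91.

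B9D1, the partner of B9D2 in that complex, had lower values with siNRF1. It had 9.92, 9.34 and 9.15 CPM with siNRF1 in the NRF1-ΔE7 line, against 15.4, 16.5 and 16.1 CPM with siNT. With siNRF1 the NRF1-FL line had 12.8, 12.8 and 11.1 CPM, against 14.98, 15.9 and 15.3 CPM with siNT. With no transgene it had 10.2, 10.4 and 9.84 CPM with siNRF1, against 16.7, 16.4 and 15.2 CPM with siNT. The siNRF1 libraries lay below the siNT libraries in each line. B9D1 fell by log2 0.76 ± 0.062 in the NRF1-ΔE7 line and 0.67 ± 0.063 without a transgene, and its value of -0.33 ± 0.061 in the NRF1-FL line passed the adjusted p (6.2e-05) but not the fold threshold.

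The tectonics TCTN1, TCTN2 and TCTN3 are secreted or membrane proteins of the same gate. TCTN2 had 37.6, 37.3 and 39.7 CPM with siNRF1 in the NRF1-ΔE7 line, against 18.3, 17.7 and 19.98 CPM with siNT. Its values were 37.9, 39.3 and 39.3 CPM with siNRF1 in the NRF1-FL line, against 19.1, 18.7 and 17.7 CPM with siNT. In cells without a transgene they were 37.96, 38.6 and 36.8 CPM with siNRF1, against 19.3, 18.8 and 18.5 CPM with siNT. Its groups lay apart in every line, and TCTN2 rose by 1.03 ± 0.046 in the NRF1-ΔE7 line, 1.07 ± 0.047 in the NRF1-FL line and 1.00 ± 0.047 without a transgene. Of the TCTN2 transcript 11% lies opposite exons of another annotated gene. TCTN1 rose by 0.68 ± 0.045, 0.57 ± 0.046 and 0.61 ± 0.045, and 17.5% of its transcript lies opposite HVCN1. TCTN3, which had the highest CPM of all members in siNT cells (61.8 ± 0.64, SD, n = 3), had values of -0.15, -0.22 and -0.11 and was not called.

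RPGRIP1L, a scaffold of the transition zone, rose by 0.64 ± 0.036 in the NRF1-ΔE7 line, 0.70 ± 0.037 in the NRF1-FL line and 0.67 ± 0.037 without a transgene. TMEM231, a membrane protein of the Meckel complex, rose by 0.66 ± 0.049, 0.60 ± 0.05 and 0.58 ± 0.05, with 13.7% of its transcript shared with other genes on its strand. TMEM67, the receptor-like protein meckelin, was called higher in the NRF1-ΔE7 line (0.55 ± 0.053) and in the NRF1-FL line (0.52 ± 0.054), and its value without a transgene was 0.42 ± 0.054. In the NRF1-FL line the call was lost without siNRF1 replicate 3 (0.49) or siNT replicate 3 (0.48), and without a transgene upper-quartile scaling gave a call (0.502). NPHP4, of the nephronophthisis module, was called higher in the NRF1-ΔE7 line (0.70 ± 0.065) and without a transgene (0.54 ± 0.063), and its value in the NRF1-FL line was 0.47 ± 0.063, which became a call without siNT replicate 3 (0.56) or with upper-quartile scaling (0.55). CEP290, which bridges membrane and microtubules, had log2 fold changes between 0.18 and 0.27, with 1 siNRF1 library of the NRF1-ΔE7 line at 53.9 CPM against 65.9 and 69.8 CPM in the other two. MKS1 and TMEM216 had values between -0.35 and -0.18 and were not called.

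Of the 4 genes of ciliary membrane traffic, 1 was called higher in the NRF1-ΔE7 line, 2 in the NRF1-FL line and 0 without a transgene. In cells without a transgene all 4 were higher at an adjusted p under 0.05, beside 5761 of the 17962 genes tested. They did not reach the fold threshold, and DESeq2 also called 0. In the same order of lines 16%, 13.1% and 13.7% of all genes tested were called higher. ARL6, the GTPase that recruits the BBSome to membranes, was called in the NRF1-ΔE7 line (0.52 ± 0.069) and in the NRF1-FL line (0.57 ± 0.068), with 0.43 ± 0.069 without a transgene. In the NRF1-ΔE7 line its call was lost without siNRF1 replicate 2, siNRF1 replicate 3 or siNT replicate 1 (0.45 to 0.498), and without a transgene it was gained without siNT replicate 2 (0.51). TULP3, the adaptor by which IFT-A brings receptors into cilia, was called in the NRF1-FL line (0.52 ± 0.033; 0.49 and not called without siNRF1 replicate 1), and its values were 0.46 ± 0.033 in the NRF1-ΔE7 line and 0.32 ± 0.033 without a transgene. INPP5E, the phosphoinositide phosphatase of cilia, and ARL3, the GTPase that releases it there, had values between 0.18 and 0.42 and were not called. Upper-quartile scaling added ARL6 in cells without a transgene (0.52), and TULP3 (0.56) and INPP5E (0.51) in the NRF1-ΔE7 line.

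At the basal body OFD1, a centriolar and satellite protein, fell in every line. It had 15.6, 18.5 and 16.02 CPM with siNRF1 in the NRF1-ΔE7 line, against 27.9, 25.3 and 25.4 CPM with siNT. Its levels in the NRF1-FL line were 17.5, 18.1 and 19.8 CPM with siNRF1, against 27.97, 26.7 and 25.4 CPM with siNT. Without a transgene it had 20.8, 18.8 and 19.97 CPM with siNRF1, against 27.7, 30.4 and 29.3 CPM with siNT. The siNRF1 and siNT libraries did not overlap in any line, and OFD1 fell by 0.65 ± 0.064 in the NRF1-ΔE7 line, 0.53 ± 0.064 in the NRF1-FL line and 0.55 ± 0.064 without a transgene. With upper-quartile scaling the last 2 were -0.45 and -0.46 and not called, and without siNT replicate 1 of the NRF1-FL line its value was -0.499. RPGR, a regulator of the gate mutated in retinal dystrophy, was called higher in the NRF1-FL line (0.52 ± 0.059) and without a transgene (0.52 ± 0.059), and its value in the NRF1-ΔE7 line was 0.39 ± 0.058. The call was lost without siNRF1 replicate 2, siNRF1 replicate 3 or siNT replicate 3 of the NRF1-FL line (0.47 to 0.499) and, in cells without a transgene, without siNRF1 replicate 1 or siNT replicate 3 (both 0.47). ALMS1 and CEP41, proteins of the centriole and of tubulin glutamylation, had values between 0.19 and 0.32 and were not called.

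Per kilobase of the canonical transcript, mean levels in siNT cells without a transgene ran from 25.9 CPM per kb for IFT20 and 24.6 for TCTN3 to 2.80 for TMEM67 and 2.16 for CC2D2A. B9D2 stood 39th of 41 with 3.39 CPM per kb. IFT88 and IFT122 gave 4.33 and 5.09 CPM per kb. On this scale the 4 lowest members were all of the transition zone.

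The isoform lines were compared next, NRF1-ΔE7 against NRF1-FL. Isoform, line and level of total NRF1 RNA cannot be told apart in this comparison. Under siNRF1 1 of 41 members was called higher in the NRF1-ΔE7 line (2.11% of all genes were) and 0 lower (4.1%). DESeq2 also called 1 and 0. An unadjusted edgeR p under 0.05 was found for 22 of 41 members, beside 7258 of the 17962 genes tested. The gene called was B9D2, with 14.03, 13.2 and 13.8 CPM in the NRF1-ΔE7 line, against 8.21, 8.64 and 7.12 CPM in the NRF1-FL line, a log2 fold change of 0.77 ± 0.097 (adjusted p = 1.6e-06). The 3 libraries of each line did not overlap. The median over the members was 0.0037 and that over all genes tested 0.0033. By the adjusted p alone 21 members passed, 12 of them higher, where 31.7% of all genes passed.

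Below the fold threshold, IFT122 had 60.3 ± 1.8 CPM with siNRF1 in the NRF1-ΔE7 line and 44.5 ± 1.5 CPM in the NRF1-FL line (SD, n = 3 each; log2 0.44 ± 0.042, adjusted p = 2.8e-08). TRAF3IP1 had 16.4 ± 1.9 CPM in the NRF1-ΔE7 line and 22.4 ± 0.97 CPM in the NRF1-FL line (log2 -0.45 ± 0.064, adjusted p = 7.7e-06). B9D1 had 9.47 ± 0.40 CPM in the NRF1-ΔE7 line and 12.3 ± 0.97 CPM in the NRF1-FL line (log2 -0.37 ± 0.063, adjusted p = 7.2e-05). In each of these 3 genes the libraries of the lines did not overlap. CC2D2A (0.32) and INPP5E (0.22) had higher values in the NRF1-ΔE7 line and WDR35 (-0.29) lower ones, each past the adjusted p. In the IFT-B core the values lay between -0.098 and 0.19, and IFT22 (0.19) and IFT27 (0.16) were its highest. In the basal body group ALMS1 (-0.16) and OFD1 (-0.15) had the largest values, and in ciliary membrane traffic ARL6 (-0.13) followed INPP5E.

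**Figure D4:**
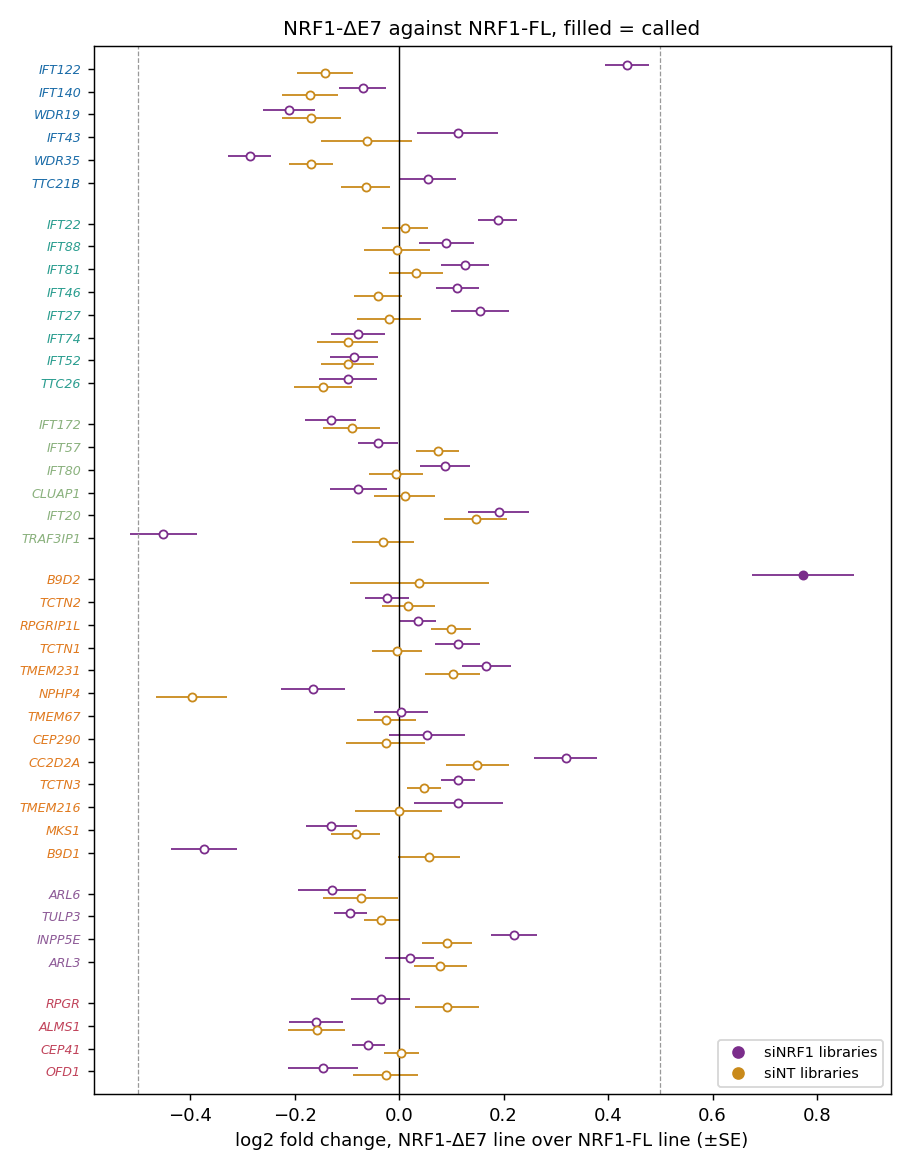
Log2 fold change of the NRF1-ΔE7 line over the NRF1-FL line (horizontal axis, ±SE) for the 41 members (rows, coloured by role group), in siNRF1 libraries (purple) and in siNT libraries (ochre). Filled points were called and dashed lines mark ±0.5. B9D2 with siNRF1 is the filled point, at 0.77, and no point of the siNT libraries is past the lines.

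Under siNT, where endogenous NRF1 was present, 0 of 41 members were called between the NRF1-ΔE7 and NRF1-FL lines by edgeR or by DESeq2. Of all genes 2.21% were called by edgeR. The unadjusted edgeR p was under 0.05 for 10 of 41 members, beside 4968 of the 17962 genes tested. By the adjusted p alone 4 members passed (15.5% of all genes), all with lower values in the NRF1-ΔE7 line. The largest was NPHP4, with 13.1, 12.96 and 14.5 CPM in the NRF1-ΔE7 line, against 16.8, 16.6 and 19.9 CPM in the NRF1-FL line, and a log2 fold change of -0.40 ± 0.068 (adjusted p = 0.0002). Its libraries did not overlap. IFT140 (-0.17), WDR19 (-0.17) and WDR35 (-0.17), 3 subunits of IFT-A, were the others. For B9D2 the value under siNT was 0.038 ± 0.13.

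Whether the response to siNRF1 itself differed between lines was tested by the interaction of isoform and siRNA. For the NRF1-ΔE7 line minus the NRF1-FL line, 2 of 41 members were called higher (0.317% of all genes were) and 0 lower (1.92%). DESeq2 gave the same counts. At an unadjusted edgeR p under 0.05 there were 8 of 41 members, beside 3464 of the 17962 genes tested. The 2 members called were B9D2 and IFT122. The siNRF1 value of B9D2 was larger by 0.74 ± 0.17 in the NRF1-ΔE7 line (adjusted p = 0.0056), and that of IFT122 by 0.58 ± 0.068 (adjusted p = 2.2e-06). By the adjusted p alone 4 members passed (7.19% of all genes), the others being TRAF3IP1 (-0.42 ± 0.087, adjusted p = 0.0025) and B9D1 (-0.43 ± 0.087, adjusted p = 0.002), whose siNRF1 values were lower in the NRF1-ΔE7 line.

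For the NRF1-FL line minus cells without a transgene, 0 members were called higher (1.75% of all genes) and 1 lower (0.15%), with the same counts by DESeq2 and 8 members at an unadjusted p under 0.05. This was again B9D2, with -0.70 ± 0.17 (adjusted p = 0.011), and without siNT replicate 3 of the NRF1-FL line its call was lost (log2 -0.53) and 0 members were called. By the adjusted p alone 5 members passed (5.33% of all genes), B9D2, IFT122 (-0.35 ± 0.067), TRAF3IP1 (0.31 ± 0.087), B9D1 (0.34 ± 0.088) and TULP3 (0.21 ± 0.047). Both comparisons use the libraries of the NRF1-FL line and are not independent.

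For the NRF1-ΔE7 line minus cells without a transgene, 0 members were called by edgeR or DESeq2 (0.156% of all genes by edgeR), and 4 had an unadjusted p under 0.05. The values were 0.039 ± 0.16 for B9D2, 0.22 ± 0.067 for IFT122, -0.11 ± 0.089 for TRAF3IP1 and -0.089 ± 0.088 for B9D1.

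**Figure D5:**
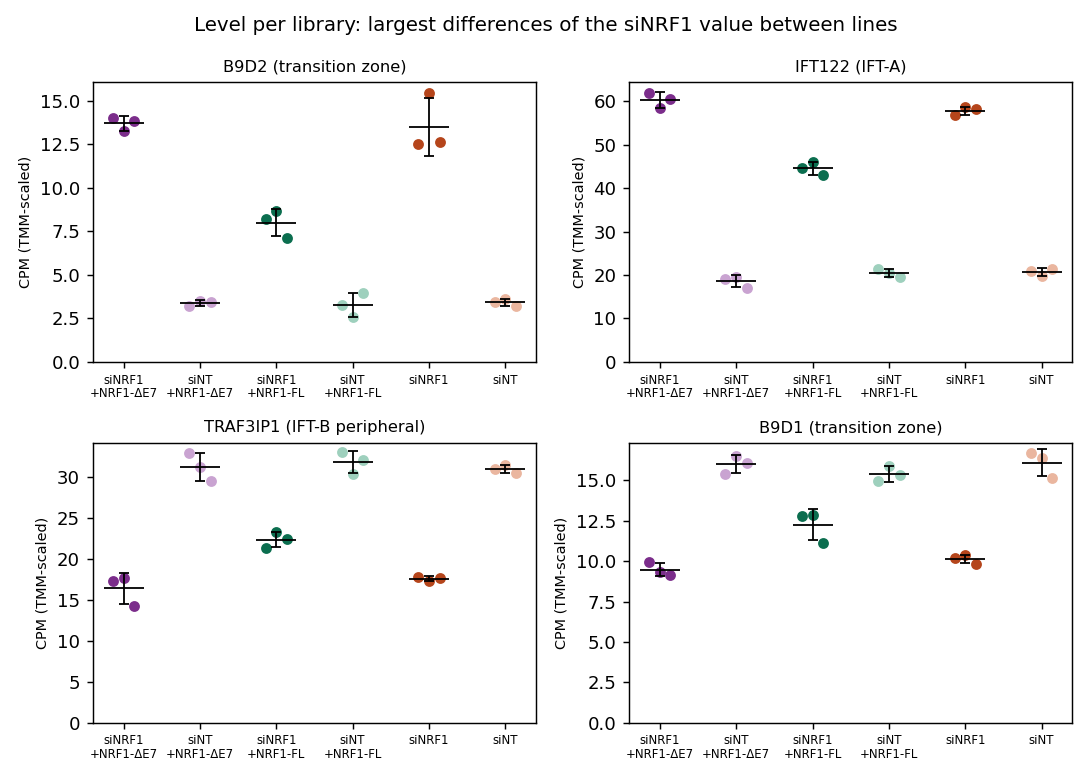
CPM per library (vertical axis, TMM-scaled) of B9D2, IFT122, TRAF3IP1 and B9D1 in the 6 conditions. Points are libraries, black bars are the mean ± SD of 3. With siNRF1 the NRF1-FL line lies between the siNT libraries and the other siNRF1 libraries in each panel, as for B9D2 with a mean of 7.99 CPM, against 13.7 CPM in the NRF1-ΔE7 line.

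Other genes of cilia that were not members gave the comparison a scale. Of 65 listed genes of motors, the BBSome, further base proteins, Hedgehog signalling and RFX factors 63 were tested. With siNRF1 17 were called higher and 8 lower in the NRF1-ΔE7 line, 13 and 7 in the NRF1-FL line, and 11 and 9 without a transgene, with medians of 0.26, 0.19 and 0.28. In this order the shares higher were 27%, 20.6% and 17.5%, beside 16%, 13.1% and 13.7% of all genes tested. The shares lower were 12.7%, 11.1% and 14.3%, beside 16.8%, 14% and 15.2%. Under siNRF1, NRF1-ΔE7 against NRF1-FL gave 0 higher (2.11% of all genes) and 4 lower (6.35%, beside 4.1% of all genes). BBS2, a BBSome subunit, had 5.35 ± 0.17 CPM with siNRF1 in the NRF1-ΔE7 line and 30.9 ± 1.2 CPM in the NRF1-FL line (SD, n = 3 each; log2 -2.53 ± 0.052). KIF3A, a motor of IFT-B trains, had 27.2 ± 3.8 CPM in the NRF1-ΔE7 line and 62.3 ± 4.0 CPM in the NRF1-FL line (log2 -1.20 ± 0.065). The other 2 genes were ANKRD26, a distal appendage protein (-1.56 ± 0.054), and TCTEX1D2, a light chain of the ciliary dynein (-0.59 ± 0.086). These 4 were lower in the NRF1-ΔE7 line, while B9D2, the 1 member called, was higher. FOXJ1, the regulator of motile cilia, rose with siNRF1 in each line (2.18 ± 0.24 in the NRF1-ΔE7 line, 2.01 ± 0.23 in the NRF1-FL line and 1.66 ± 0.25 without a transgene) at levels below 2 CPM. UNC119B, a carrier of lipidated ciliary proteins, fell by 1.501 ± 0.038 in the NRF1-ΔE7 line, 1.49 ± 0.039 in the NRF1-FL line and 1.42 ± 0.038 without a transgene. Outside the NRF1-FL line other listed groups held larger falls. The lowest BBSome value was -3.01 in the NRF1-ΔE7 line, -0.55 in the NRF1-FL line and -2.94 without a transgene. For distal appendage and centriole genes it was -1.95, -0.35 and -1.64 in this order. In the response of the NRF1-FL line minus cells without a transgene, 3 of these 63 genes were called higher (4.76%, beside 1.75% of all genes). None was called lower, beside 0.15% of all genes.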

How the data were processed

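The values the authors deposited were estimated counts per gene for 18 bulk RNA-Seq libraries, 3 in each of 6 conditions, made with a stranded kit from polyadenylated RNA. Per the study's methods, reads were trimmed (Cutadapt 1.18) and aligned with STAR 2.7.0f to hg38 with GENCODE v30, and the submitters' notes list DESeq2 1.46.0. For the counting step, the tool and the use of strand are not stated in the sources used here. The table has 36 columns of library values. The 18 columns that match no sample here were not used.

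The counts, of which 91.9% were whole, were rounded, filtered with filterByExpr (minimum count 10) and scaled by TMM. A mean was fitted for each condition over the 18 libraries together, and contrasts were tested, two-sided, by the quasi-likelihood F test of edgeR 4.0.16 (R 4.3.3), with p-values adjusted by Benjamini-Hochberg over 17962 genes. CPM values were computed on the TMM scale. Library totals were 31.2 to 44.8 M counts, and the lowest count of a member in a library was 97. Counting error is larger at such low counts, as for B9D2, which had the lowest mean CPM of all members in siNT cells without a transgene (3.42). Replicates differed by more than sampling noise in every condition (chi-square per degree of freedom 2.01 to 7.24).

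The members and lists were chosen with earlier results of these data known. Any member could be named. Log2 fold changes were given for called members and for some others, with the 2 of each role group with the largest absolute log2 fold change as a guide. CPM per library were given for a part of the members only. At most 4 other cilium genes a comparison were named. Gene positions and 3′ UTRs come from GENCODE v44, promoters from RefSeq. Results were recomputed with RLE or upper-quartile scaling, without the filter or keeping only genes that reach 10 counts in all libraries, with a replicate block, with DESeq2 1.42.0, on the compared libraries alone, with no fold threshold and without each library in turn. Leaving out the siNRF1 libraries without a transgene that held KRT5 counts was added after seeing the data. The edgeR fit was tested on simulated counts.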

Additional observations from a re-analysis of the deposited data

Results flagged for a closer look

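The siNRF1 response of B9D2 differed between lines by a test of the difference itself. It was larger by 0.74 on the log2 scale in the NRF1-ΔE7 line than in the NRF1-FL line, and the NRF1-FL line minus cells without a transgene gave -0.70. The siNRF1 response of IFT122 was larger by 0.58 in the NRF1-ΔE7 line than in the NRF1-FL line. Part of this lies in the siNT libraries. Under siNRF1 the difference of IFT122 between these lines was 0.44 and not called. Under siNT it lay between -0.18 and -0.082 over the main and alternative fits and was not called in any. These come from 3 libraries a condition, and the lines differ in the level of total NRF1 RNA as well as in the isoform, which cannot be told apart here.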

How the results depend on the processing

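The number of members called was within 1.5 times its main value under both other scalings, both other filters, DESeq2, the compared libraries alone and the replicate block, in all 8 comparisons. Without the fold threshold it was 38 for siNRF1 in cells with no transgene, 39 in the NRF1-FL line, 21 for the isoforms under siNRF1, 4 for the isoforms under siNT, 4 for the NRF1-ΔE7 line minus the NRF1-FL line and 5 for the NRF1-FL line minus no transgene. Leaving out 1 library gave 22 to 25 calls for siNRF1 in the NRF1-ΔE7 line, 20 to 24 in the NRF1-FL line, 20 to 22 without a transgene, and 0 to 1 for the NRF1-FL line minus no transgene. The difference of the ALMS1 response between the NRF1-FL line and cells without a transgene, which was not called, ran from -0.071 to 0.011 when 1 library was left out and turned positive without siNRF1 replicate 1 of that line (0.0040), without siNT replicate 1 of that line (0.011) and without siNT replicate 1 of the cells without a transgene (0.0033). The cause was not tested. Over all 41 members, 8 comparisons and the alternatives that keep the fold threshold, 36 of 5125 values lost a call, 16 gained one and 5073 kept their side, and 172 values that were not called and 0 that were called changed sign. Libraries with the same replicate number did not deviate together (correlations -0.12 to 0.064, 0 of 45 pairs above 0.1). With the replicate block 24, 24 and 22 members were called with siNRF1 in the NRF1-ΔE7 line, the NRF1-FL line and without a transgene. The 3 libraries a condition and the single line per isoform limit these comparisons.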
